A study of Mus musculus with 8 samples.

Results

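The 10 genes that make up the core of the circadian clock were each matched by RefSeq row name to 1 row of the authors' deposited table, so that 10 of its 15978 rows are described. They are the activators Arntl (also called Bmal1), Clock and Npas2, the period genes Per1, Per2 and Per3, the cryptochromes Cry1 and Cry2, the repressor Nr1d1 (REV-ERBα) and the output factor Dbp. The table compares brain RNA from 5 male mice that express a human C9ORF72 bacterial artificial chromosome (BAC, a large cloned stretch of genomic DNA) with 500 G4C2 repeats, called C9-BAC, and 3 male wild-type mice, all on an SJL/Bl6 background. Each numbered sample, taken as 1 mouse, gave a library of total RNA made without poly(A) selection. The sources used here do not give age, brain region, hour of collection, light schedule, or a line or founder number. The question that the design poses is whether brain gene expression differs between the genotypes, here for the clock.

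The mammalian clock is a feedback loop of transcription. ARNTL pairs with CLOCK, or in the forebrain also with its relative NPAS2, and the pair binds E-box sequences to switch on the Per and Cry genes, Nr1d1 and Dbp. PER and CRY proteins then enter the nucleus and repress the pair, REV-ERB proteins repress Arntl through ROR response elements (ROREs), and DBP acts through D-box sequences. The suprachiasmatic nucleus of the hypothalamus sets the daily rhythm, and most other brain cells carry the same loop, in which Arntl RNA peaks at about the opposite time of day from Per, Nr1d1 and Dbp RNA.

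The sequence letters that connect these genes are shown here because the results are ordered by the arms of the loop. RefSeq promoter windows of the GRCm38.p6 build (250 bases before to 50 after a start site) were matched for 9 of the 10 genes, 13 windows in all; Per2 was not matched. Both strands were searched for the E-box CACGTG, a variant of it with the letters CACGTT, the RORE core TAGGTCA or TGGGTCA, the D-box TTATGNAA and the cAMP response element TGACGTCA. Capitals mark the matches, and each upstream piece ends at the base before the start site.
Per1 (chr11:69098699-69098948, plus strand): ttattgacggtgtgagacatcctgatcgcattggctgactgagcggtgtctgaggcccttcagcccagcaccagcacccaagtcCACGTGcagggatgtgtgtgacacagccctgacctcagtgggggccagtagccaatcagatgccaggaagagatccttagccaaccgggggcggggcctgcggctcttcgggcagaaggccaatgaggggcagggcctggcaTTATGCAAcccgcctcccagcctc
Cry1 (chr10:85185055-85185304, minus strand): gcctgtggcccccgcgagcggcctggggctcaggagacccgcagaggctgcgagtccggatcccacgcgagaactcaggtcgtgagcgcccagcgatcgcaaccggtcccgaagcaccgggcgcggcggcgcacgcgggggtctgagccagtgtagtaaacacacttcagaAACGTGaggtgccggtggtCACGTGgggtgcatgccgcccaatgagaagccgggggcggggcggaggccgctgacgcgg
Per3 (chr4:151044666-151044915, minus strand): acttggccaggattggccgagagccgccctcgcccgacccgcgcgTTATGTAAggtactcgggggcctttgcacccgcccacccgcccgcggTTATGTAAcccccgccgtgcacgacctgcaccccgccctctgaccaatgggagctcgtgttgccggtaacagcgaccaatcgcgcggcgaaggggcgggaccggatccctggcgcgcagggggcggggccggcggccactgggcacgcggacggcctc
Nr1d1 (chr11:98775378-98775627, minus strand): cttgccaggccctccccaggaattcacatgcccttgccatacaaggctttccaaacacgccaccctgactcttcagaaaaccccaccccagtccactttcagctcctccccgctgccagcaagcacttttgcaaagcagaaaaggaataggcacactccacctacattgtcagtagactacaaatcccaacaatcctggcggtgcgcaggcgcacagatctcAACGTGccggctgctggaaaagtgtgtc
Arntl (chr7:113207531-113207557, plus strand): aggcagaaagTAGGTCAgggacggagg
In 1 of its 2 windows Per1 held an E-box whose first base lay 166 bases before the start site. The same window held a D-box at 24 bases before that site. Cry1 held an E-box at 60 bases and the variant, read on the other strand, at 79 bases before its start site. Per3 held 2 copies of the D-box, at 205 and 158 bases before the start. Nr1d1 held the variant, also on the other strand, at 28 bases before the start, and Cry2 held it likewise at 166 bases. In Arntl the RORE core began at base 31 counted from the start site, within 1 of its 2 windows. The windows of Clock, Npas2 and Dbp held none of these letters, and the cAMP response element was in none of the 13. Of all 32851 windows of this length, 7.15% held the E-box, 4.68% the variant, 6.45% the RORE core, 3.38% the D-box and 1.79% the cAMP response element. Of the 13 clock gene windows, 2 held the E-box, 3 the variant, 1 the RORE core and 2 the D-box. No difference from the shares of all windows was tested. The matches describe letters and do not show binding.

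No core clock gene passed a DESeq2 adjusted p of 0.05 between the genotypes in the authors' deposited table, where all 10 had an adjusted p of 0.9997. Over all rows the count was likewise 0 of 15944 (0%). At an unadjusted p of 0.05 the count was again 0 of 10, beside 239 of 15944 rows (1.50%) by the same DESeq2 test. No source used here says which genotype a positive value favours, so signs stand as deposited and are never read as higher or lower in C9-BAC mice. Log2 fold changes of the clock genes in the authors' deposited table ran from -0.13 for Cry1 to 0.17 for Arntl, which are ratios of 0.914 and 1.13. An absolute log2 fold change of at least 0.1 belonged to 3 of the 10 (Arntl, Cry1 and Per3) and to 17.4% of all rows. Values per mouse were not used here, since the authors' deposited table gives 1 value per gene, and neither the spread between mice nor the effect of any 1 mouse could be shown. In whole-tissue RNA, fewer cells of a type and less RNA per cell cannot be told apart.

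**Figure D1:**
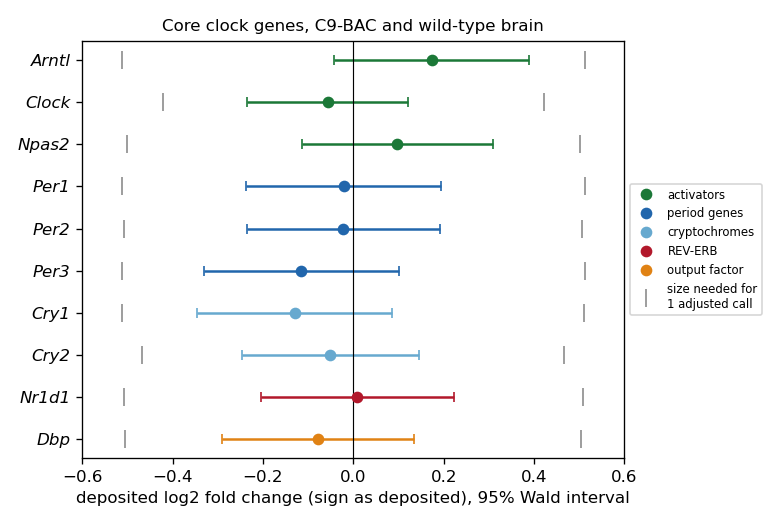
Deposited log2 fold change (horizontal axis, sign as deposited) of the 10 core clock genes with 95% Wald intervals, coloured by arm of the loop; grey ticks mark the size that 1 adjusted call would have needed. All 10 intervals span 0, and the points run from -0.13 (Cry1) to 0.17 (Arntl).

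The activators had 2 positive values and 1 negative. Arntl, the partner that the loop cannot run without, lies on chromosome 7 at 113178471 to 113314126 (mm10) and had the largest statistic of the 10, with a log2 fold change of 0.17, standard error 0.11 and p = 0.114 from DESeq2 in the authors' deposited table. Its 95% Wald interval, 0.971 to 1.31 as a ratio, includes no difference. In absolute size the Arntl statistic exceeded that of 95.7% of rows with a p. Npas2, on chromosome 1 at 39193702 to 39363240, gave 0.10 on the log2 scale with a standard error of 0.11 and p = 0.366 (DESeq2, the authors' deposited table). Clock, a histone acetyltransferase as well as a transcription factor, on chromosome 5 at 76209868 to 76305603, gave -0.06 with a standard error of 0.09 and p = 0.528 (DESeq2, the authors' deposited table). The interchangeable partners Clock and Npas2 thus had opposite signs, each within 1 standard error of 0.

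All 5 repressors of the Per and Cry families had negative values, from -0.13 to -0.02 in log2 fold change (the authors' deposited table), and none passed. Cry1, a potent repressor of the CLOCK and ARNTL pair, lies on chromosome 10 at 85131700 to 85185054 and had the most negative value, -0.13 with a standard error of 0.11 and p = 0.236 (DESeq2, the authors' deposited table). Cry2, on chromosome 2 at 92403646 to 92434085, gave -0.05 with a standard error of 0.10 and p = 0.61 (DESeq2, the authors' deposited table). Per3, on chromosome 4 at 150997018 to 151044707, gave -0.12 with a standard error of 0.11 and p = 0.294 (DESeq2, the authors' deposited table). Per1 and Per2, the period genes that light induces in the suprachiasmatic nucleus, both stood at -0.02 with standard errors of 0.11, with DESeq2 p-values of 0.846 and 0.841 (the authors' deposited table). Per1 lies on chromosome 11 at 69095108 to 69109965 and Per2 on chromosome 1 at 91415977 to 91459351. The 95% intervals of Per1 (0.849 to 1.14 as a ratio) and Per2 (0.850 to 1.14) were nearly the same. Per3 and the other period genes differed by less than 1 standard error; the difference between them was not tested.

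Nr1d1 and Dbp are both direct E-box targets with steep daily rhythms, and neither passed. Nr1d1, on chromosome 11 at 98767932 to 98775377, gave 0.01 on the log2 scale with a standard error of 0.11 and p = 0.936 (DESeq2, the authors' deposited table), smaller in absolute statistic than all but 8.27% of rows. Dbp, on chromosome 7 at 45705100 to 45710203, gave -0.08 with a standard error of 0.11 and p = 0.472 (DESeq2, the authors' deposited table). The interval ran from 0.868 to 1.17 as a ratio for Nr1d1 and from 0.818 to 1.10 for Dbp. Both genes overlap a neighbour on the opposite strand at one end. Nr1d1 shares 1075 bases with the thyroid hormone receptor gene Thra, whose own log2 fold change was 0.11 (p = 0.284, DESeq2, the authors' deposited table) at a mean normalized count of 5002. Dbp shares 741 bases with the sphingosine kinase gene Sphk2, whose log2 fold change was 0.13 (p = 0.195, DESeq2, the authors' deposited table) at a mean normalized count of 215.2. The libraries were strand-specific per the labels' protocols, but no source used here says whether the counting used strand, so reads from these shared ends are uncertain. Reference genes within the bounds of other members were not analysed here. Per3 overlaps Uts2 and Cry2 the lncRNA gene D930015M05Rik (23417 shared bases), each on the other strand. Clock overlaps the pseudogene Ube2n-ps1, on its own strand, and the lncRNA gene Gm7467, on the other. Npas2 holds the pseudogenes Gm20428, Gm17904 and Gm3617, Arntl the lncRNA gene Gm33721 and Per2 the lncRNA gene Gm35591, so reads from these stretches are uncertain too. Per1 and Cry1 overlapped no gene of the reference table.

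By sign, 3 of the 10 clock genes were positive, against 47.5% of all rows, and their median log2 fold change was -0.04, against -0.004 over all rows in the authors' deposited table. Among the 10, Arntl and Npas2 were positive beside negative values in all 5 Per and Cry genes and in Dbp, but Clock, an activator, was negative (-0.06) and Nr1d1, an E-box target like Per and Dbp, was positive (0.01). No member's value lay more than 1.58 standard errors from 0. The smallest log2 fold change that could have given 1 adjusted call at the member's own standard error was 0.42 for Clock (1.34-fold), 0.47 for Cry2 (1.38-fold) and 0.50 to 0.51 for the other 8. An estimate below those sizes could not have been the only adjusted call. The size of true difference that this test could detect was not computed. The standard errors in the authors' deposited table have a ceiling of 0.11 and fall at low counts, a shape that a prior pulling fold changes toward 0 would give; the sources used here do not record such a step. If one was used, these ratios are smaller than the differences in the counts, and the intervals do not bound those differences.

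The standard error of each clock gene was set against rows of like abundance, in 20 bins of about 799 rows by mean normalized count. Per3 had a standard error above 99.5% of its bin in the authors' deposited table, Per1 above 97.9% and Arntl above 96.6%. Dbp (81.6%), Cry1 (83.6%), Per2 (84.1%), Nr1d1 (85.6%) and Npas2 (77.3%) came next. Cry2 (56.2%) was near the middle, and Clock (30.8%) was the only member below the middle of its bin. Per3 (0.110013), Per1 (0.109997) and Arntl (0.109949) lay just under 0.110014, the largest standard error of any row. Their ranks thus show nearness to that ceiling, and spread between mice was not shown.

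**Figure D2:**
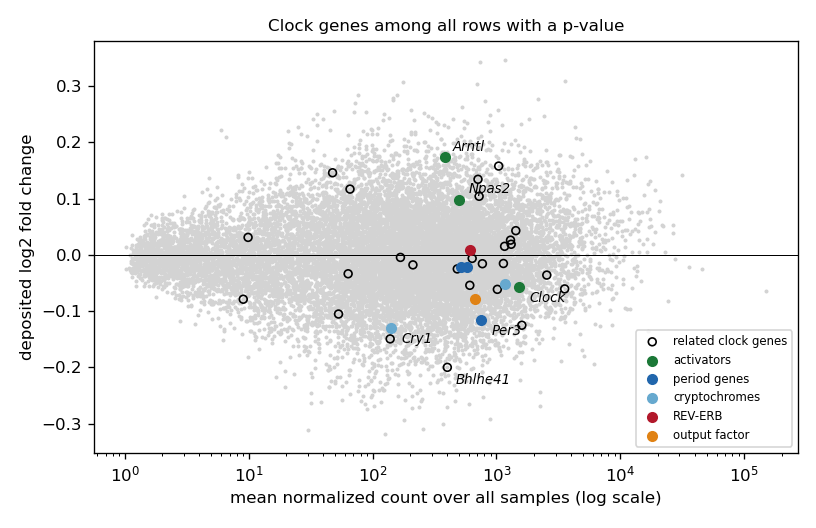
Deposited log2 fold change (vertical axis) against mean normalized count over all samples (horizontal axis, log scale) for the 15944 rows with a p-value (grey), the 26 related clock genes (open circles) and the 10 core genes (filled, coloured by arm). The core genes lie inside the grey cloud, with Arntl highest at 0.17 and Cry1 lowest at -0.13.

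The mean normalized count was above 100 for all 10 genes, which thus passed each filter on low values that was tried. Mean normalized counts ran from 141.5 for Cry1 to 1520 for Clock, with a median of 597.1 in the authors' deposited table, where the median of all rows was 170.8. Because a longer transcript yields more reads, levels of clock genes were compared as the mean normalized count per kilobase of transcript, from GENCODE vM21 lengths. On that scale Dbp was highest at 367 per kilobase, above 88.7% of rows, and Cry2 (292) and Nr1d1 (226) followed. Next came Clock (177), Arntl (140), Per3 (126), Npas2 (117), Per1 (112) and Per2 (99.3), and Cry1 was lowest at 46.8. Cry2 RNA was thus 6.25 times as abundant per kilobase as Cry1 RNA, and Clock RNA 1.51 times as abundant as Npas2 RNA (1.34 times with the longest transcript of each row). The 3 period genes lay within a factor of 1.27 of each other. The long Clock transcript, with a median length of 8611 bases, led in mean normalized count but not per kilobase, where the short Dbp transcript (1837 bases) led. No spread over mice stands behind these levels, so it was not shown which neighbours in the order differ. The hour of collection is not given either, and several of these RNAs have daily rhythms. The order and ratios thus describe these samples only, and levels at other hours were not measured. Reads from the overlapped stretches named above are uncertain in these levels too.

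**Figure D3:**
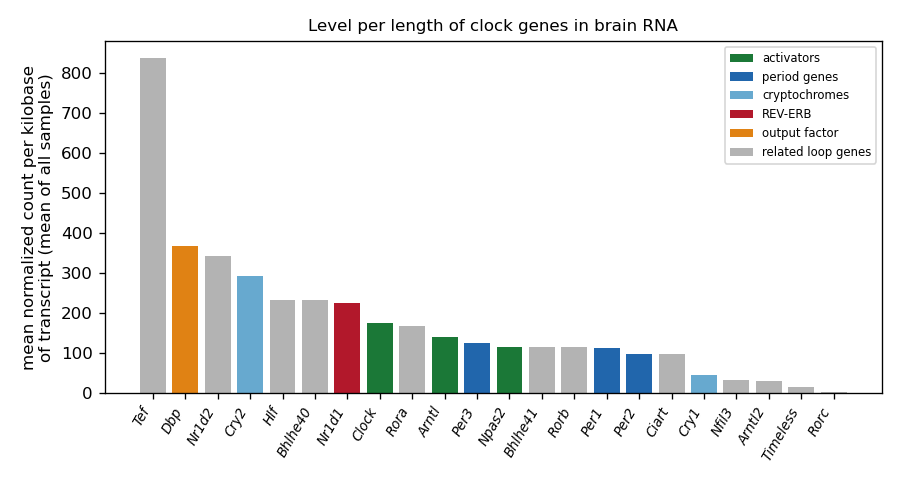
Mean normalized count per kilobase of transcript (vertical axis, from 0) for the 10 core clock genes, coloured by arm, and the 12 related loop genes (grey), ordered by level; each bar is 1 value over all 8 samples, with no error. Tef is highest at 837, and the core genes run from 367 for Dbp to 46.8 for Cry1.

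The other genes of the clock, 26 in a list of loop partners, regulators of PER and CRY turnover, inputs and outputs, were read in the same way. The count with a DESeq2 adjusted p under 0.05 was 0 of 26 in the authors' deposited table, and 1 of 26 had an unadjusted p under 0.05, against 1.50% of all rows. Of the 26 values 10 were positive and 16 negative, against 47.5% positive over all rows, and the median log2 fold change was -0.02. Of the 12 loop partners 3 were positive and 9 negative. Bhlhe41 (DEC2), a repressor at E-boxes, had the smallest p, with a log2 fold change of -0.20, standard error 0.10 and p = 0.0424 (DESeq2 adjusted p = 0.9997, the authors' deposited table). Nr1d2 (REV-ERBβ), the relative of Nr1d1, came next at -0.13 with a standard error of 0.08 and p = 0.127 (DESeq2, the authors' deposited table). Per kilobase, Nr1d2 stood at 344 beside 226 for Nr1d1. Tef, of the same family of D-box factors as Dbp, was the highest of the loop partners at 837 per kilobase, beside 367 for Dbp, and gave -0.06 on the log2 scale (the authors' deposited table).

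Regulators of PER and CRY protein turnover had 5 positive and 3 negative values of 8. Csnk1e, a casein kinase that phosphorylates PER, gave 0.13 (p = 0.182) and Fbxl21, an F-box protein that binds CRY, 0.15 (p = 0.183) on the log2 scale by DESeq2 in the authors' deposited table. Btrc, the F-box protein that recognises phosphorylated PER, had the highest level of this group at 592 per kilobase and gave 0.03 on the log2 scale (the authors' deposited table). Among the 4 input genes, Crtc1, a coactivator of CREB, gave 0.16 (p = 0.143) and Rasd1 0.03 (p = 0.689), by DESeq2 in the authors' deposited table. Crtc1 was also the highest of the 4 at 183 per kilobase. The 2 output genes were both negative, with Nampt, the rate-limiting enzyme of NAD salvage, at -0.05 (p = 0.551) and the cell cycle kinase gene Wee1 at -0.02 (p = 0.871) by DESeq2 in the authors' deposited table. Nampt stood at 135 per kilobase and Wee1 at 61.9.

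Transcript GC content moved with the fold change across the whole table, and the clock genes spanned its range. With rows divided into 5 equal groups by GC content, 23.8% of the lowest group and 66.3% of the highest had a positive log2 fold change. Clock (41.5% GC) lies in the lowest group and Arntl (47.9%) in the next, while Per1 (59.4%), Nr1d1 (56.8%) and Dbp (61.6%) lie in the highest. With the median of rows of like GC content subtracted, the log2 fold change was 0.19 for Arntl, 0.09 for Npas2 and -0.01 for Clock. The same step gave -0.14 for Cry1, -0.12 for Per3, -0.11 for Dbp, -0.08 for Cry2, -0.05 for Per1, -0.04 for Per2 and -0.01 for Nr1d1, whose sign turned, leaving 2 of 10 positive. With the statistic also rescaled to the spread of all rows, 1 of the 10, Arntl, came under 0.05 unadjusted (rescaled statistic 2.49), beside 6.17% of rows, and its Benjamini-Hochberg adjusted p was 0.595. Rescaling without the GC step also brought 1 of 10, Arntl, under that threshold (rescaled statistic 2.10), beside 5.11% of rows, with an adjusted p of 0.954. With the GC trend taken off and no rescaling, a setting added after the data were seen, the count was 0 of 10. Of the 26 related genes 3 (Bhlhe41, Ciart and Fbxl21) came under 0.05 unadjusted with both steps and 1 (Bhlhe41) with rescaling alone. Adjusted over all rows, both steps together called 5 rows of the table and rescaling alone called 0, none of them a core or related clock gene.

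**Figure D4:**
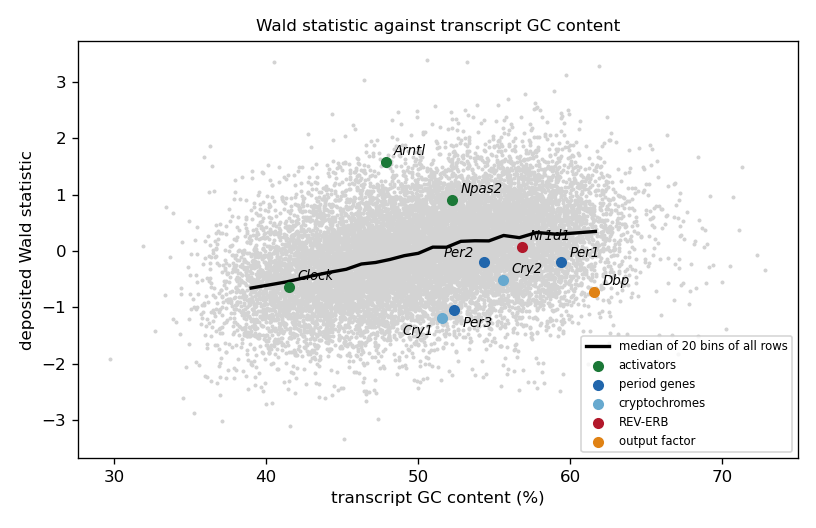
Deposited Wald statistic (vertical axis) against transcript GC content in percent (horizontal axis) for all rows with both values (grey), with the median of 20 bins as a line and the 10 core clock genes coloured by arm. Arntl and Npas2 lie above the line, and the Per and Cry genes and Dbp lie below it. Clock, an activator, and Nr1d1 lie just below the line.

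The tissue label was checked against cell markers, and genes of other states were set beside the clock. All 18 markers of neurons, astrocytes, oligodendrocytes, microglia and endothelial cells had a row. Their mean normalized counts ran from 92.7 to 45839 in the authors' deposited table. None of them passed, beside 0 of 15944 rows (0%), and 10 of the 18 values were positive and 8 negative. The 4 analysed markers of pituitary and choroid plexus lay between 5.02 and 33.2 in the authors' deposited table. Of 11 genes of the suprachiasmatic nucleus 7 were analysed here. Their mean normalized counts ran from 4.39 for Avp to 250.9 for Vip, a peptide also made by cortical interneurons, and 1 of the 7 reached 100 in the authors' deposited table. The counts of markers and of suprachiasmatic genes were not divided by transcript length. Per1 is also induced by neuronal activity and by glucocorticoids. Immediate early genes of neuronal activity had 7 positive and 1 negative value among the 8 with a p (median log2 fold change 0.04, smallest p 0.241, DESeq2, the authors' deposited table). The 1 gene of this list with a row but no p was negative too (-0.04). Over all rows 47.5% were positive. With the median of rows of like GC content subtracted, 6 of these 8 were positive and their median was 0.006. Genes of the glucocorticoid response had 2 positive and 5 negative of 7 with a p (median -0.05, smallest p 0.0612, DESeq2, the authors' deposited table). Here too the 1 gene with a row but no p was negative (-0.04). The same GC step left 1 of the 7 genes with a p positive, with a median of -0.06. None of these lists had a member with a DESeq2 adjusted p under 0.05, and their part in the clock values was not tested.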

How the data were processed

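Brain RNA of 8 mice (5 C9-BAC, 3 wild-type) was compared; replicate numbers are not shared between genotypes. Trimmomatic, Bowtie2, DESeq and DESeq2 with build mm10 are named, without versions, per the submitters' processing notes; the sources used here do not give the counter, annotation or filters. The authors' deposited table gives a mean normalized count, a signal averaged over samples, per the file headers. Per the file headers, the fold change and its standard error are log2 values. Its Wald statistic is a score equal to the deposited fold change over its error, and the p-value and adjusted p-value are as the authors deposited them, adjusted across all 15944 rows with a p. Recomputed Benjamini-Hochberg values differed from them by at most 5.33e-12. The p-values rest on samples that the labels number separately; if these were not separate mice, they measure technical spread only. The mean normalized counts sum to 9226666, and depth per sample was not analysed here.

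Symbols came from RefSeq accessions (GRCm38.p6, the same assembly as mm10) for 15853 rows. GC content and length, found for 15751 rows (98.6%), are medians over a row's GENCODE vM21 transcripts. GC and abundance trends were taken off as medians of 20 bins. The rescaled statistic was centred on the median and divided by the SD from the median absolute deviation, with two-sided normal p-values. The GC step and the rescaling, but not the abundance step, were also run on simulated statistics. The shifts planted there were larger than the largest absolute statistic of the real data (3.38), so smaller shifts were not tested. Analyses used Python 3.11.15, pandas 2.3.3 and scipy 1.17.1. All 10 core genes are named; each related group names its 2 genes of smallest p and its highest level per kilobase, and other genes are named where they overlap a member. Ciart, Vip and Avp were named after values were seen. Members and lists were chosen with earlier results of these data known.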

Additional observations from a re-analysis of the deposited data

How the results depend on the processing

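The 0 adjusted calls among the 10 core and the 26 related clock genes were also 0 with the adjustment limited to rows whose mean normalized count reached 10 or 100, with the statistic rescaled, and with the GC trend taken off and the statistic rescaled. The count limits left each DESeq2 p-value unchanged, the smallest being 0.114 in a core gene and 0.0424 in a related gene. These limits were therefore no real test of the 0 calls. The count of core genes with an unadjusted p under 0.05 went from 0 to 1 (Arntl) with the statistic rescaled and to 1 (Arntl) with the GC trend taken off and the statistic rescaled. With the GC trend taken off alone, a setting added after the data were seen, it was 0. Rescaling divided the statistic by an SD of 0.777, or of 0.692 after the GC step. The log2 fold change of Nr1d1 went from 0.0087 to -0.013 with the GC bin median subtracted, a change of sign well inside its standard error. The other 9 core genes kept their sign with the median of all rows, of the GC bin or of the abundance bin subtracted. The median of the 10 lay between -0.044 and -0.032. The median of all rows, -0.004, was smaller in size than each core gene's value, so subtracting it could turn no sign. Levels per kilobase of Arntl, Clock and Per1 moved by less than 1.5 times with the longest transcript. The other core genes had 1 transcript each, so their levels could not move and this was no test of them. Fits without 1 mouse were not run, because the table holds 1 value per gene, and a choice between rows of 1 gene did not arise, since each core gene has 1 row.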
